A study of Mus musculus with 3 samples.

Results

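The interleukin-1 family and inflammasome genes described here are 10 genes, chosen by name among the 32285 genes of the count table: the cytokines Il1a, Il1b and Il18, the receptor antagonist Il1rn, the sensors Nlrp3 and Aim2, the adaptor Pycard (ASC), the caspases Casp1 and Casp4 (caspase-11), and the pore-forming protein gene Gsdmd. Each symbol matched 1 row of the table. They were measured in CD45+ leukocytes sorted from the aorta of 10 mice on a C57BL/6 background, labelled as WT and myeloid JAK2-V617F, with no treatment. Jak2WT denotes 5 control littermates. Jak2V617F Myel denotes 5 mice that carried a Cre-dependent Jak2V617F allele and LysM-Cre, in which Cre is driven by the Lysozyme M promoter, active mainly in myeloid cells. Of these, 3 had aortic dilation and 2 had aortic aneurysm at collection. Their ages are not given in the sources used here. Each mouse carried its own hashtag (1 to 5 for Jak2WT, 6, 8 and 10 for dilation, 7 and 9 for aneurysm), and mice are named below by group and hashtag. All 10 mice went through a single sort and a single 3' single-cell RNA run, the sort was set to yield similar numbers of cells from both genotypes, and circulating cells labelled by intravenous antibody were excluded. Counts of transcripts do not separate the mutant from the normal Jak2 allele.

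IL-1α and IL-1β act through the same receptor and drive leukocyte recruitment and fever, and the receptor antagonist encoded by Il1rn occupies that receptor without signalling. Pro-IL-1β and pro-IL-18 are inactive until cleaved. In the canonical inflammasome a sensor such as NLRP3, or AIM2 for cytosolic DNA, recruits ASC, which activates caspase-1, whereas caspase-11 binds cytosolic lipopolysaccharide. Both caspases cleave gasdermin D, whose amino-terminal part forms the pore through which mature IL-1β leaves the cell. Macrophages, neutrophils and dendritic cells are the usual sources, and transcript levels say nothing of cleavage or release.

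After removal of hashtag multiplets and of cells with more than 10% mitochondrial transcripts, 4871 cells remained, with 112 to 553 cells and 1038443 to 5614097 unique transcripts (UMIs) per Jak2WT mouse, 345 to 774 cells and 3306955 to 8453972 UMIs per dilation mouse, and 795 to 811 cells and 8863756 to 9643994 UMIs per aneurysm mouse. The aneurysm mice were thus the most deeply sampled. Cell classes were rebuilt by clustering from which the 10 genes and 46 genes of related pathways were left out, and were named from marker lists. Levels are given as UMIs per 1000000 UMIs of a class (CPM), summed per mouse where at least 10 cells were present. The clusters were drawn on the same cells, so the p-values of comparisons between classes describe these clusters.

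In mm10 (GRCm38), Il1a (chr2:129299610-129309972) and Il1b (chr2:129364570-129371139) lie on the minus strand, as does Pycard (chr7:127989708-127993867). Il1rn (chr2:24336853-24351494), Casp1 (chr9:5298517-5307265), Casp4 (chr9:5308828-5336783), Il18 (chr9:50554827-50581840), Nlrp3 (chr11:59541568-59566956), Aim2 (chr1:173350879-173466040) and Gsdmd (chr15:75862327-75867408) lie on the plus strand. The DNA before the annotated start is shown for the 4 genes that were higher together in aneurysm macrophages (Il1b, Il1a, Il1rn and Nlrp3) and for Casp4, which with Nlrp3 separated resident macrophage subsets. The sequences come from RefSeq (GRCm38.p6), run 5′ to 3′ on the strand of the gene and end where the annotated gene begins. Capitals mark matches to GGGNNNNNCC on either strand, a kappaB-type motif.
Il1b chr2:129371140-129371389 minus strand: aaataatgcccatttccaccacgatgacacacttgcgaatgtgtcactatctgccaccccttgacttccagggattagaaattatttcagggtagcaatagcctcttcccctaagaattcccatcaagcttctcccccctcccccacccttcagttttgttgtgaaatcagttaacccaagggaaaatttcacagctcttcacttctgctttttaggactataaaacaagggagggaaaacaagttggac
Il1a chr2:129309973-129310222 minus strand: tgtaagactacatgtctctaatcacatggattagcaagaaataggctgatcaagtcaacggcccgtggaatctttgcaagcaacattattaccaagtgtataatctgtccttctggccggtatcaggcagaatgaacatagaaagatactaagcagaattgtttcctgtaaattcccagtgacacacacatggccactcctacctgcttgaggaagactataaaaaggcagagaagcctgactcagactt
Il1rn chr2:24336610-24336852 plus strand: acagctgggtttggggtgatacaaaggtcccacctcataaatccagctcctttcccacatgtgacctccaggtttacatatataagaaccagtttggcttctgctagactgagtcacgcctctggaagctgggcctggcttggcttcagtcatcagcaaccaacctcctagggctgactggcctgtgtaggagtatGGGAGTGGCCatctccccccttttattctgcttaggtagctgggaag
Nlrp3 chr11:59541319-59541567 plus strand: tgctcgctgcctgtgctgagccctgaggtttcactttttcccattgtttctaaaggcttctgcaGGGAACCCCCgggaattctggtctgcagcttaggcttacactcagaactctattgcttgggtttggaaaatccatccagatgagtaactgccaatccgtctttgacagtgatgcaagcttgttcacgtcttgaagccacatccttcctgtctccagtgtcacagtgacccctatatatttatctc
Casp4 chr9:5308599-5308827 plus strand: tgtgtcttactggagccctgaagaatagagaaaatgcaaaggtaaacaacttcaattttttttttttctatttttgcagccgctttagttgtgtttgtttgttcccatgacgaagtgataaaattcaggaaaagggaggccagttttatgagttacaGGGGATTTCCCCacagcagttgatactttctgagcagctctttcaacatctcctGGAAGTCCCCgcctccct
Matches overlap one another in Casp4, where 5 were found, and in Nlrp3, where the 2 are the same bases read on both strands. Il1rn held 1, and none was found in the windows of Il1b and Il1a. These counts are of the stretches shown, some of which were cut at the gene start. The 9 genes with an entry had 13 RefSeq windows of 250 bases. The motif was in 6 of the 13, from 4 genes, against 45.8% of all 32851 windows. A window of Nlrp3 that is not shown (chr11:59542436-59542685) held none. Of the Il1rn windows not shown, that at chr2:24345041-24345290 held none and that at chr2:24345121-24345370 held 1. The Casp4 window not shown (chr9:5308610-5308859) held 6. The STAT-type motif TTCNNNGAA was in 7.02% of all windows and in none of the 13. Neither result says anything about binding of a factor.

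Il1b encodes the precursor of IL-1β. Among classes with at least 10 cells in 3 or more mice, it was highest in neutrophils, dendritic cells and inflammatory macrophages. In resident macrophages it was near the level of lymphocytes. In neutrophils its level was 6016 CPM in Jak2WT mouse 3, 9209 in aneurysm mouse 7 and 20480.4 in aneurysm mouse 9, a mean of 11902 ± 7599 CPM (SD, n = 3 mice). Conventional type 2 dendritic cells (cDC2) had 3128 ± 977 CPM (SD, n = 9 mice), and cDC1, the cross-presenting dendritic cells, had 2549 ± 1370.2 CPM (SD, n = 4). Macrophages of the Ccr2+ inflammatory clusters had 2527 CPM in Jak2WT mouse 2, 1799 and 1958 in dilation mice 6 and 10, and 3559.8 and 3575 in aneurysm mice 7 and 9. Both aneurysm mice stood above the other 3 mice in that class. Monocytes had too few cells per mouse for a level, but 28 of them, 0.575% of all cells, held 2.91% of the Il1b UMIs. Resident macrophages, in contrast, had 30.6 ± 8.32 CPM (SD, n = 10), with every mouse between 19.6 and 40.5. B cells had 36.7 ± 10.4 CPM (SD, n = 9) and T cells lay between 8.51 and 64.4 CPM. With each cell thinned to 2000 UMIs, 5.81% of resident macrophages (35 of 602, exact 95% interval 4.08 to 7.99%) and 5.07% of B cells (27 of 533, 3.36 to 7.28%) had an Il1b UMI, so that resident macrophages did not stand above B cells at this depth. The share was 68.8% in Ccr2+ inflammatory macrophages, 63.7% in cDC2 and 91.5% in neutrophils. Without thinning the 5 shares were 20%, 15.7%, 80.7%, 75.7% and 94.5%, with median depths of 10411, 5388, 12771, 15572 and 4091 UMIs per cell. Such intervals cover counting error only.

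Il1a, which encodes IL-1α, peaked elsewhere. Myeloid cells marked by Saa3, Prg4 and Slpi had 538 CPM in Jak2WT mouse 5 and 557 and 661 in dilation mice 8 and 10, a mean of 586 CPM. These 211 cells were 4.33% of all cells and held 57.6% of the Il1a UMIs, nearly all of them in 3 mice. They held 883 of 984 Il1a UMIs in Jak2WT mouse 5, 165 of 192 in dilation mouse 8 and 1331 of 1495 in dilation mouse 10, but 16 of 799 in aneurysm mouse 7 and 1 of 512 in aneurysm mouse 9, each of which had 2 such cells. The next levels were 98.9 CPM in neutrophils (n = 3) and 91.6 CPM in Ccr2+ inflammatory macrophages (n = 5), while resident macrophages had between 0 and 10.5 CPM. In dilation mouse 6 the 12 inflammatory macrophages held no Il1a UMI.

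Il1rn, the antagonist, was high in neutrophils, inflammatory macrophages and cDC2 and nearly absent from cDC1. Neutrophils had 692 CPM in Jak2WT mouse 3, 917 in aneurysm mouse 7 and 914 in aneurysm mouse 9. In Ccr2+ inflammatory macrophages the level was highest in Jak2WT mouse 2 at 893 CPM, against 188 to 533 CPM in the 4 mutant mice. cDC2 had 208 CPM on average (n = 9), from 79.2 to 331. In cDC1 a single Il1rn UMI was found in 4 mice, where cDC2 of the same mice held 800, a ratio of 0.00397 with an exact counting interval of 1e-04 to 0.0222. Saa3+ myeloid cells, at 41.1 CPM (range 30.4 to 57.6, n = 3), also had less Il1rn than cDC2. Thinned to 2000 UMIs, 0 of 83 cDC1 had an Il1rn UMI, which allows a share of up to 3.61% of cells with a UMI (3 counts of 83), against 19.8% of cDC2, and 1.2% and 38.4% without thinning.

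Nlrp3 was highest in neutrophils (1157 CPM, range 854 to 1388, n = 3), in Saa3+ myeloid cells (817 CPM, range 602 to 957, n = 3) and in Ccr2+ inflammatory macrophages (661 CPM, range 537 to 848, n = 5). The macrophage cluster marked by immediate-early genes (IEG+) had 293 CPM (n = 9), cDC2 157 CPM (n = 9), and B cells 10.8 CPM (n = 9). The ranges of IEG+ macrophages (151 to 475 CPM) and B cells (3.69 to 34.6 CPM) did not overlap. Thinned to 2000 UMIs, 71.7% of neutrophils, 63.4% of Ccr2+ inflammatory macrophages, 6.15% of resident macrophages and 1.88% of B cells had an Nlrp3 UMI, and 80.7%, 90.1%, 22% and 3.75% did without thinning.

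**Figure D1:**
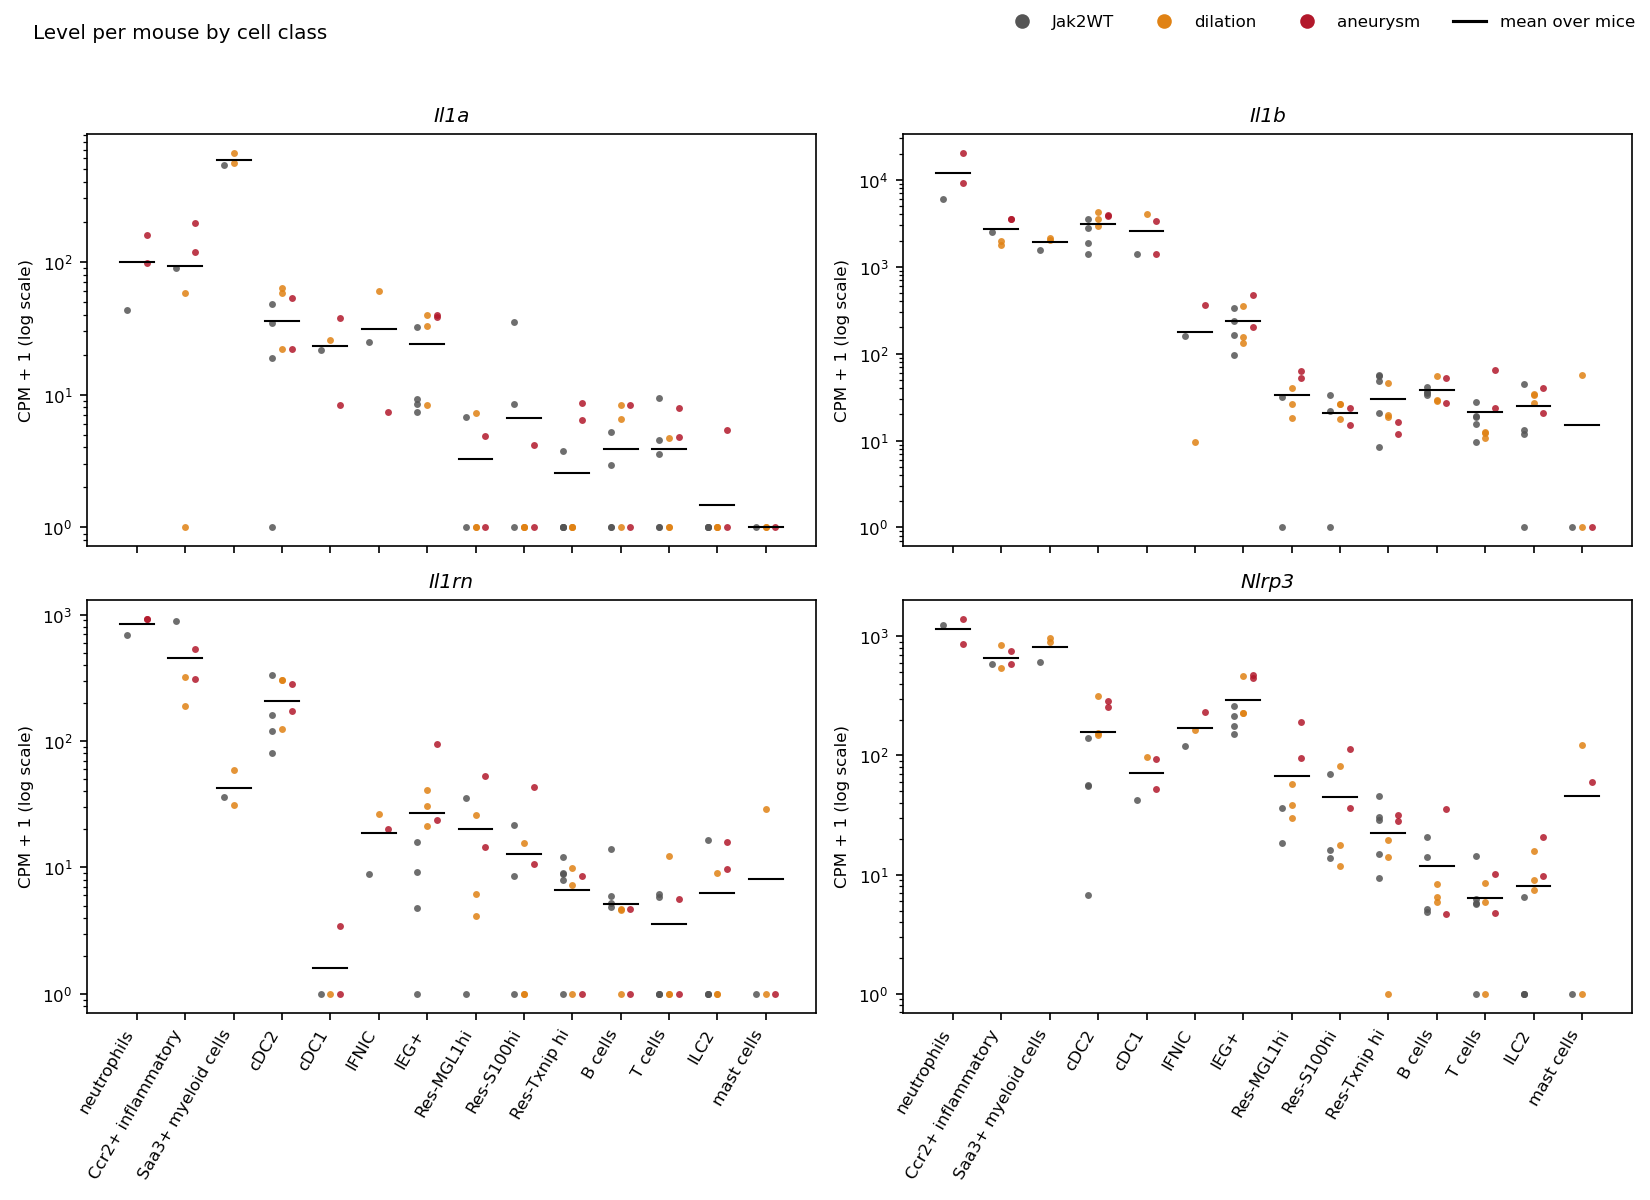
Level of Il1a, Il1b, Il1rn and Nlrp3 (vertical axis, CPM + 1 on a log scale) in 14 cell classes (horizontal axis). Each point is a mouse with at least 10 cells of the class, coloured by group, and the bar is the mean over mice. Il1b is at 20480.4 CPM in the neutrophils of aneurysm mouse 9. Its means are 32.3, 19.6 and 29.2 CPM in the resident macrophage subsets Res-MGL1hi, Res-S100hi and Res-Txnip hi. Il1rn is near 0 in cDC1.

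The remaining members varied less between myeloid classes. Il18, made constitutively in many cells, was at 56.1 CPM in interferon-responsive macrophages (IFNIC, n = 3), 41.3 in cDC1 (n = 4), 31 in cDC2 (n = 9) and 26.2 ± 8.85 CPM in resident macrophages (SD, n = 10). Neutrophils of 3 mice held 1 Il18 UMI in all, a ratio to resident macrophages of the same mice of 0.0943 with an exact counting interval of 0.00235 to 0.546. ILC2, NK cells, γδ T cells and mast cells held none, which allows up to 2.12, 5.06, 2.59 and 12 CPM, respectively. Aim2, the DNA sensor, was the member most evenly shared between myeloid and B cells, with 56.7 CPM in cDC1 (n = 4), 42.3 in B cells (n = 9), 34.1 in cDC2 (n = 9) and 26.8 in resident macrophages (n = 10).

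Pycard was present in every class, from 436 CPM in Saa3+ myeloid cells (n = 3) and 354 CPM in Rag1+ T cells (n = 4) to 34 CPM in ILC2 (n = 9), and T cells had 116 CPM (n = 10) against 132 CPM in resident macrophages. Casp1 was highest in the S100hi resident subset (85.4 CPM, n = 8) and IFNIC (80.5 CPM, n = 3), with 21 CPM in cDC1 and 10.5 CPM in T cells. Casp4 was led by the Res-MGL1hi subset (205 ± 33.9 CPM, SD, n = 7) and the IEG+ cluster (199.6 CPM, n = 9), with 13.9 CPM in cDC1 and 8.02 CPM in T cells. Gsdmd kept between 26.6 and 41.1 CPM in all macrophage subsets, dendritic cells, Saa3+ myeloid cells and neutrophils with at least 3 mice. Of 150 neighbouring pairs in the orders of the 10 genes over 16 classes with at least 3 mice, 3 had p below 0.05 in an exact two-sided sign-flip test over the mice with both classes, and 0 had an adjusted p below 0.05. Only 35 of the pairs shared enough mice for p to fall below 0.05. The 16 classes were single clusters or cell types. Ccr2+ inflammatory macrophages, pooled from clusters that each had at least 10 cells in only 2 mice, were not among them.

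**Figure D2:**
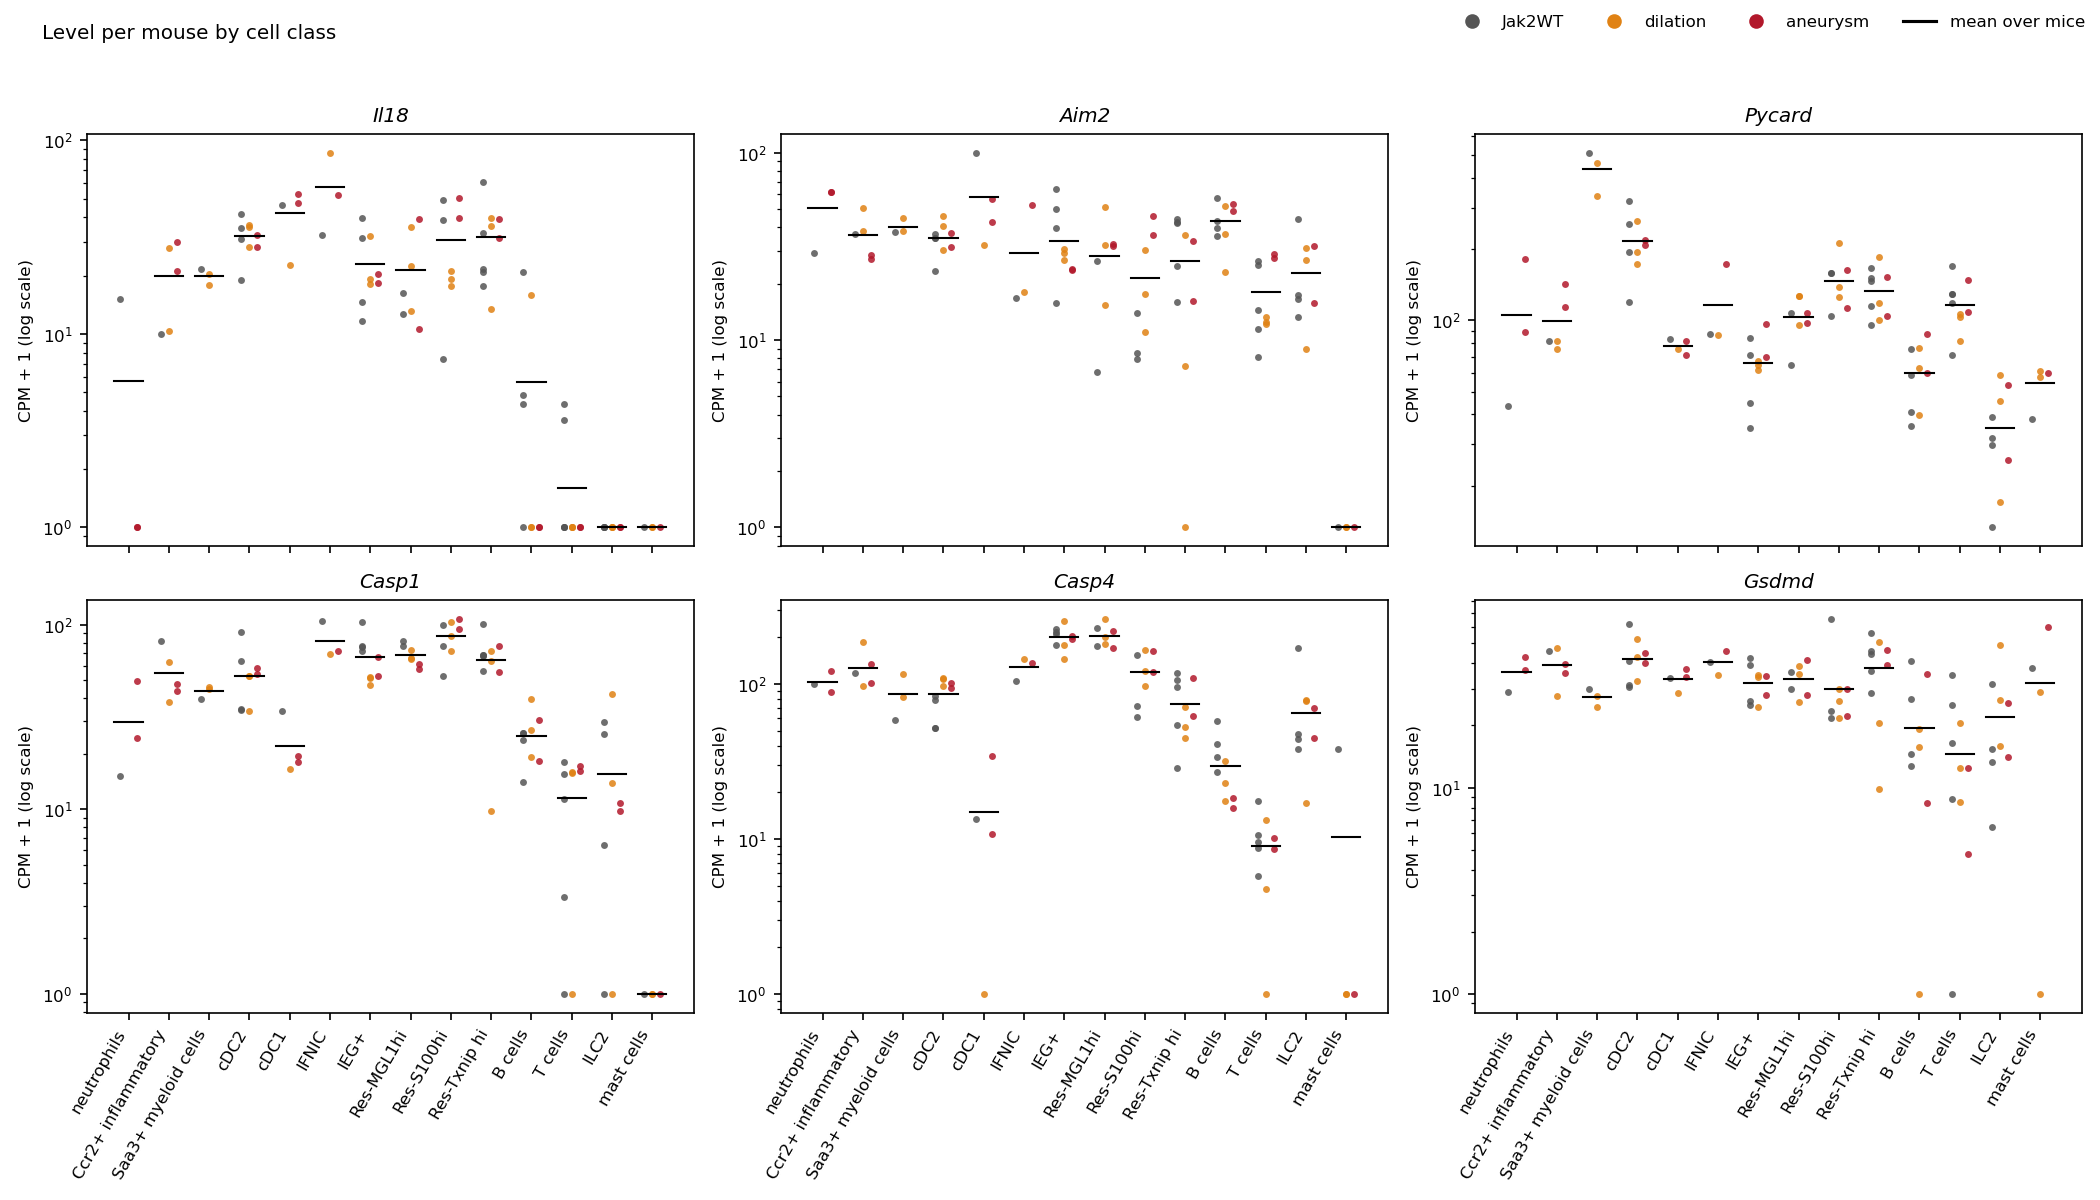
Level of Il18, Aim2, Pycard, Casp1, Casp4 and Gsdmd (vertical axis, CPM + 1 on a log scale) in 14 cell classes (horizontal axis). Points are mice with at least 10 cells, coloured by group, and bars are means over mice. Gsdmd is level across myeloid classes, whereas Casp4 is low in cDC1 and in T cells.

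As a description over the same 16 classes, the gene most like Il1b in log2 level was Gpr35 (r = 0.934), followed by Pmaip1 (0.902) and Aqp9 (0.891). Nlrp3 was most like Nfe2l2 (0.915), Etf1 (0.895) and Mir22hg (0.884). Il1rn was nearest to Gm5150 (0.919), Hcar2 (0.906) and Inhba (0.904). The most similar genes of 6 other members were 5031439G07Rik for Il18 (0.951), Ncf4 for Aim2 (0.918), Ndufa8 for Pycard (0.827), Ctsh for Casp1 (0.956), Rab11fip5 for Casp4 (0.898) and Prkcd for Gsdmd (0.894). Between members, Il1a, Il1b and Nlrp3 had pairwise r of 0.8 to 0.86, and Casp1 had 0.83 with Il18, 0.82 with Aim2 and 0.8 with Casp4. The points are 16 classes that share mice, 1 run and free RNA, and 9425 genes were compared.

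Classes were then compared within mice, on sums per mouse with the mouse as a block (edgeR quasi-likelihood test, Benjamini-Hochberg adjustment over all genes tested). In Ccr2+ inflammatory macrophages of 5 mice, 4 of 10 members were higher than in resident macrophages, 0 were lower, and 6 were not called, where 11.3% of 7596 genes were higher, 11.7% lower, and 23.1% called in all. Il1b was higher by 6.67 ± 0.19 log2 units (SE, adjusted p = 1.4e-14) and in 5 of 5 mice. Il1a was higher by 5 ± 0.45 (adjusted p = 8.43e-08, 4 of 5 mice), Il1rn by 4.97 ± 0.37 (adjusted p = 5.64e-09) and Nlrp3 by 3.42 ± 0.23 (adjusted p = 1.17e-09), the last pair in 5 of 5 mice. Il18 and the other inflammasome genes were not called, with log2 differences of −0.21 ± 0.31 for Il18, 0.24 ± 0.27 for Aim2, −0.08 ± 0.2 for Pycard, −0.36 ± 0.2 for Casp1, −0.29 ± 0.18 for Casp4 and 0.26 ± 0.24 for Gsdmd. The median over the 10 members was 0.25, and over all genes −0.07. The class pools an Spp1+ cluster of 329 cells and an Hbegf+ cluster of 158 cells, and the Spp1+ cluster alone, compared in 2 mice, gave 6.88 for Il1b, 5.84 for Il1a, 4.38 for Il1rn and 2.77 for Nlrp3. There Casp4 was lower by −0.59 (adjusted p = 0.0336), which the pooled class did not show.

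Of the 46 pathway genes, 24 were tested in that comparison and 6 were called, where 23.1% of all 7596 genes were called. Irak2, a kinase of the receptor complex, was higher by 1.61 ± 0.3, and Tnfaip3 (A20), a brake on NF-κB, by 1.48 ± 0.17. P2rx7, the ATP-gated channel that triggers NLRP3, had 30.9 CPM against 115 in resident macrophages and was lower by −1.87 ± 0.21. Ninj1, which ruptures the membrane in lytic death, was lower by −1.8 ± 0.19, Serpinb1a, an inhibitor of inflammatory caspases and neutrophil proteases, by −3.02 ± 0.45, and Il1rl1, the IL-33 receptor, by −0.92 ± 0.32. Adjusted p-values of the 6 ranged from 4.43e-07 to 0.0409.

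cDC2 differed from resident macrophages in more members. Over 9 mice, 8 of 10 were higher and 1 lower, where 51.2% of 7922 genes were called, 24.6% higher and 26.6% lower. Il1b was higher by 6.91 ± 0.22 and Il1rn by 4.27 ± 0.27, each in 9 of 9 mice, and Il1a by 3.92 ± 0.41 and Nlrp3 by 2.05 ± 0.25, each in 8 of 9, with adjusted p from 4.14e-14 to 1.56e-06. Pycard was higher by 0.92 ± 0.1 (216 against 136 CPM, adjusted p = 4.07e-07), Aim2 by 0.62 ± 0.18 (adjusted p = 0.00628), Gsdmd by 0.53 ± 0.17 (adjusted p = 0.014) and Il18 by 0.49 ± 0.19 (adjusted p = 0.04). The call on Il18 was lost without Jak2WT mouse 2 or 5, dilation mouse 6, 8 or 10 or aneurysm mouse 9 (adjusted p from 0.0568 to 0.123) and with DESeq2 (adjusted p = 0.0828), and that on Gsdmd without dilation mouse 8 (adjusted p = 0.0509). Casp4 was lower, with 85.3 against 142 CPM, by −0.46 ± 0.14 (adjusted p = 0.0107), and Casp1, with 51.9 against 74.1 CPM, was not called (adjusted p = 0.0754, and 0.0437 without Jak2WT mouse 1). Among pathway genes 18 of 30 tested were called. The decoy receptor Il1r2, which binds IL-1 without signalling, had 48.3 against 0.901 CPM (higher by 6.39 ± 0.47, adjusted p = 1.63e-09), and Mefv, which encodes the sensor pyrin, 40.4 against 0.971 CPM (higher by 5.35 ± 0.42). Il18rap and Sigirr were higher by 3.99 ± 0.44 and 3.63 ± 0.49. P2rx7, Ninj1, Nlrc4 and Il18bp, the soluble IL-18 inhibitor, were lower by −3.14 ± 0.21, −3.19 ± 0.15, −2.71 ± 0.31 and −2.61 ± 0.61.

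Between both dendritic cell types, compared in 4 mice, cDC1 were lower than cDC2 in 6 of 10 members and higher in 0, where 31.5% of 4649 genes were called, 14% higher and 17.4% lower. Beside Il1rn, whose counts are given above, Casp4 was lower by −2.65 ± 0.43 (13.9 against 88.3 CPM, adjusted p = 0.000249), Pycard by −1.29 ± 0.18 (76.9 against 203 CPM, adjusted p = 5.93e-05), Nlrp3 by −1.26 ± 0.26 (adjusted p = 0.00161) and Casp1 by −1.19 ± 0.33 (adjusted p = 0.0129), each in 4 of 4 mice. Il1b was lower by −0.66 ± 0.21 (adjusted p = 0.0257), a call that was lost without Jak2WT mouse 2 (adjusted p = 0.136), without aneurysm mouse 9 (adjusted p = 0.082) and without the mouse as a block (adjusted p = 0.244). The call on Casp1 was lost without aneurysm mouse 7 (adjusted p = 0.107). DESeq2 called 4 members, without Il1b (adjusted p = 0.084) and Casp1 (adjusted p = 0.0929), and 1009 genes in all. With sums of at least 1 cell Il1b differed by −0.24 (adjusted p = 0.326) and Il1a by −0.8 (adjusted p = 0.0468). Aim2 (56.7 against 35 CPM, adjusted p = 0.0893, and 0.0446 without dilation mouse 6), Il18 (41.3 against 33.5 CPM), Il1a (22.4 against 44.6 CPM) and Gsdmd (32.7 against 38.9 CPM) were not called. Of 13 pathway genes tested, 5 were lower in cDC1 (Il1rl1, Mefv, Casp8, Ninj1 and Tnfaip3) and 0 were higher.

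In the 3 mice with enough neutrophils, 4 of 9 tested members were higher than in resident macrophages and 0 lower, where 32.7% of 4506 genes were called, 14.3% higher and 18.3% lower. Il1b was higher by 8.59 ± 0.51 (adjusted p = 3.04e-24), Il1rn by 5.9 ± 0.52 (adjusted p = 7.76e-16), Il1a by 5.63 ± 0.85 (adjusted p = 8.15e-08) and Nlrp3 by 4.17 ± 0.47 (adjusted p = 1.18e-11), all in 3 of 3 mice. Casp1 had 28.5 against 67.9 CPM and was not called (adjusted p = 0.243), and Pycard had 104 against 108 CPM. Aim2 differed by 0.84 ± 0.68, Casp4 by −0.04 ± 0.53 and Gsdmd by 0.27 ± 0.72, and Il18, whose counts are given above, was not tested. With sums of at least 1 cell in place of 10, Pycard (−1.39, adjusted p = 0.00164), Casp1 (−1.94, adjusted p = 0.000283) and Casp4 (−0.8, adjusted p = 0.0451) were lower in neutrophils. That setting called 3162 of 5305 genes. In the main fit the median of all genes was −0.28, and neutrophils were the shallowest of the compared classes. Without Jak2WT mouse 3, 5 members were called, and without aneurysm mouse 9, 3. Of the pathway genes 11 of 18 were called. Il1r2 held 490 UMIs in neutrophils (1628 CPM) against 1 in resident macrophages, Il1f9 (IL-36γ) 81 UMIs (287 CPM) against 0, and Il1rap, the co-receptor, 126 against 6.76 CPM (higher by 4.48 ± 0.69). Irak2 was higher by 2.42 ± 0.68 (76.8 against 17 CPM), as were Il18rap, Mefv and Serpinb1a, while P2rx7 was lower by −3.98 ± 0.82.

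Resident macrophages were divided into subsets marked by the lectin MGL1 (Res-MGL1hi), by S100 genes (Res-S100hi) and by Txnip (Res-Txnip hi). A cluster of 358 macrophages was divided again for this, because at first a wanted subset had no named cluster. The cluster to divide was picked by the markers of that subset. The first and the last subset had enough cells in 7 mice. Of 6 members tested 2 were higher in Res-MGL1hi, where 13.6% of 4743 genes were called. Casp4 was 228, 174, 201, 169, 179, 220.3 and 261 CPM in Res-MGL1hi of Jak2WT mice 2 and 5, dilation mouse 6, aneurysm mouse 7, dilation mouse 8, aneurysm mouse 9 and dilation mouse 10, and 105, 53, 70.5, 60.8, 51.9, 109 and 43.6 CPM in their Res-Txnip hi cells. The subsets did not overlap, and the difference was 1.73 ± 0.18 log2 units (adjusted p = 2.21e-07). Nlrp3 was likewise higher by 1.73 ± 0.31 (66.1 against 20.4 CPM, adjusted p = 0.000342), in 6 of 7 mice, the exception being Jak2WT mouse 2 with 35.5 against 45.1 CPM. Without the block on mice, 1 member (Casp4) was called, since Nlrp3 did not pass the filter on low counts that goes with that fit. Il1b (32.3 against 23.2 CPM), Pycard, Casp1 and Gsdmd were not called, and Il1a, Il1rn, Il18 and Aim2 did not pass the filter on low counts. Tnfaip3 (1.71 ± 0.23) and Ninj1 (0.41 ± 0.09) were the pathway genes called, of 12 tested.

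**Figure D3:**
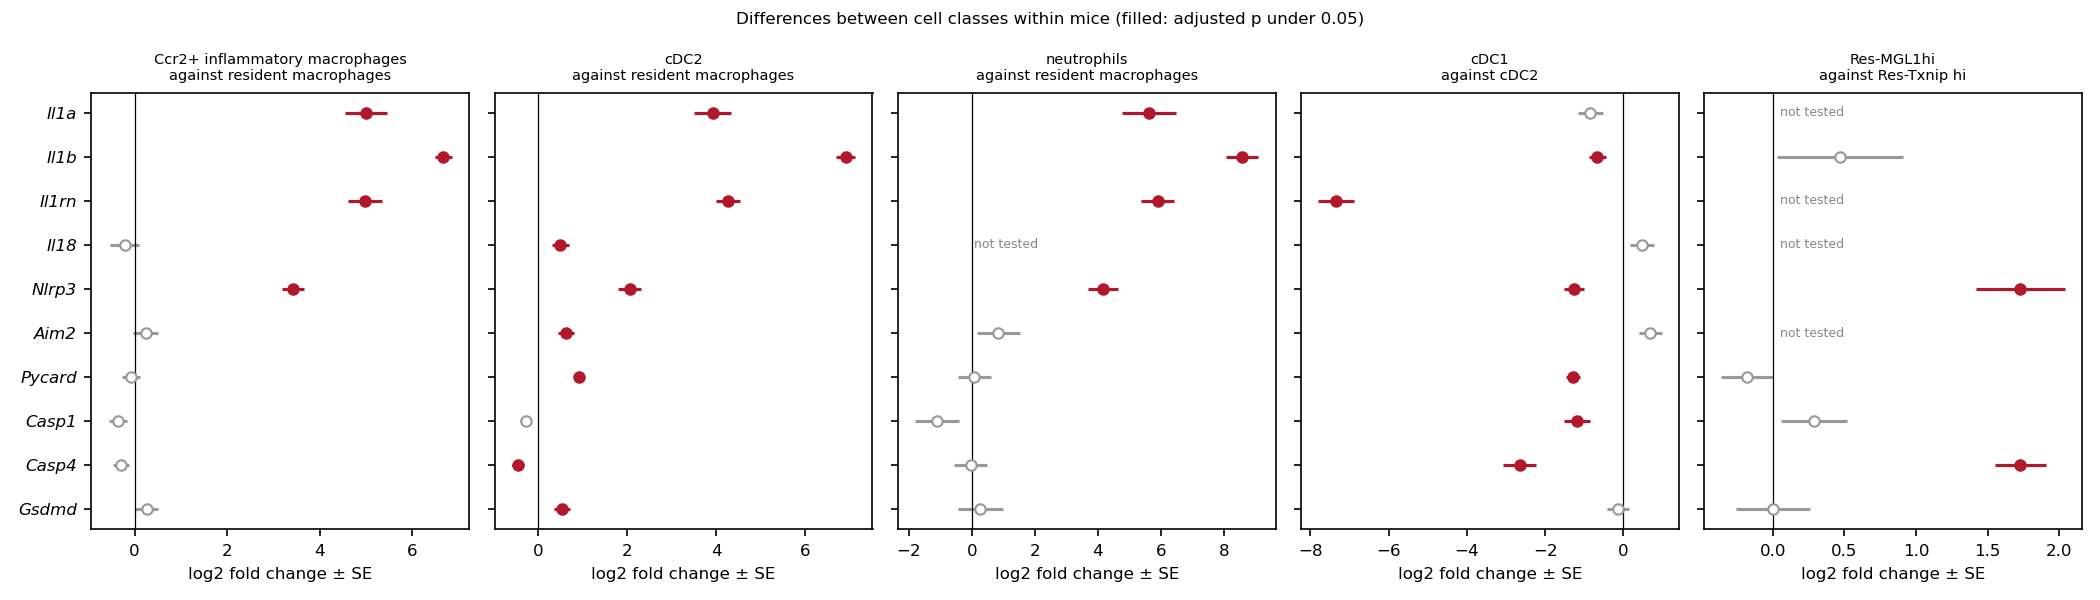
Log2 fold change with its SE (horizontal axes) of the 10 members (vertical axis) in the 5 comparisons between cell classes within mice. Filled points had an adjusted p below 0.05. Il1a, Il1b, Il1rn and Nlrp3 lie far to the right in Ccr2+ inflammatory macrophages, cDC2 and neutrophils, while Pycard, Casp1, Casp4 and Gsdmd lie between −1.11 and 0.92 there, and Il1rn, Casp4, Pycard, Nlrp3, Casp1 and Il1b lie to the left in cDC1.

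**Figure D4:**
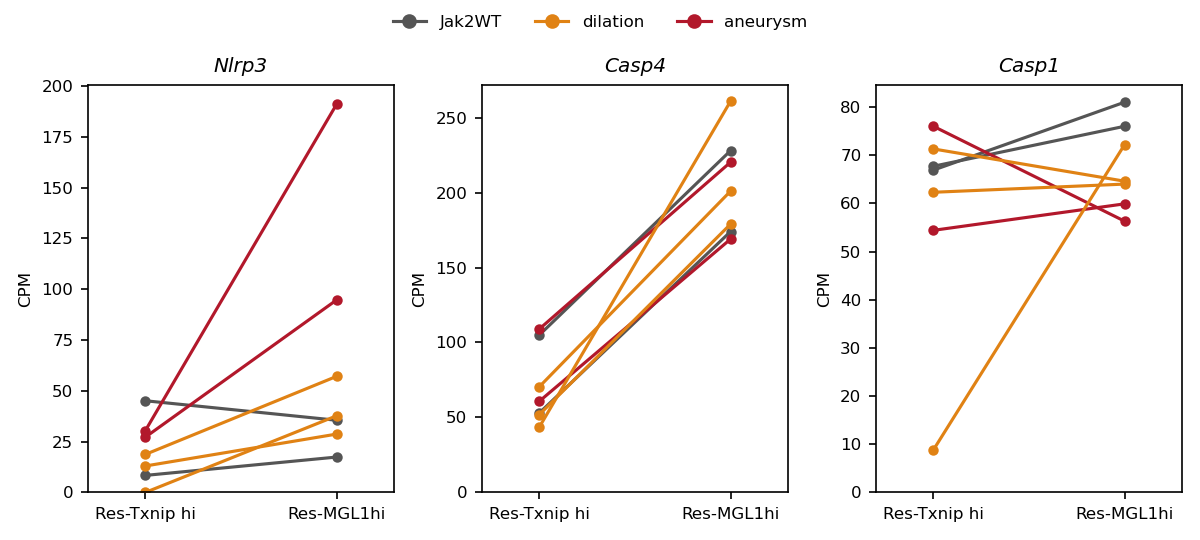
Level of Nlrp3, Casp4 and Casp1 (vertical axis, CPM) in the Res-Txnip hi and Res-MGL1hi subsets, with a line for each of the 7 mice that had at least 10 cells of both, coloured by group. Casp4 is higher in Res-MGL1hi in every mouse and Nlrp3 in 6 of 7, whereas the Casp1 lines cross.

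The next comparison asked whether the genes differed with the genotype within a cell type. In resident macrophages, with 5 mice a group, 0 of 8 tested members were called by edgeR and 0 by DESeq2, with 2 at an unadjusted p below 0.05, where 0.945% of 6456 genes were called. Of all genes tested, 776 had an unadjusted p below 0.05, and DESeq2 called 92. Nlrp3 was 25.3, 48.4, 24.7, 28.4 and 11.7 CPM in Jak2WT mice 1 to 5, 44.5, 20.8 and 35.8 CPM in dilation mice 6, 8 and 10, and 131 and 87.9 CPM in aneurysm mice 7 and 9. Both aneurysm mice lay above all others, and the genotypes overlapped. The difference was 1.27 ± 0.45 log2 units (adjusted p = 0.228), and 0.36 with the aneurysm mice left out. Nlrp3 passed without a filter on low counts (1.31, adjusted p = 1.05e-05) and with clusters drawn on all variable genes (1.91, adjusted p = 0.0235). Those settings called 318 of 15054 and 133 of 6739 genes, respectively. The 6 cDC2 markers, of a class with more Nlrp3, summed to 4.05 to 37 CPM in the resident macrophages of Jak2WT mice, 36.6 to 60.4 in dilation and 39.5 to 116 in aneurysm mice, with none at 0, and their part was not tested. Casp4 had 55.5 to 170.4 CPM in Jak2WT and 145 to 169 CPM in Jak2V617F Myel mice, a difference of 0.51 ± 0.2 (adjusted p = 0.293), which passed without Jak2WT mouse 2 (0.74, adjusted p = 0.0444) and without the filter (0.54, adjusted p = 0.0219). Without Jak2WT mouse 2, 142 of 6729 genes were called. The Res-MGL1hi subset, in which both genes were higher, made up 7.69 to 41.9% of the resident macrophages in Jak2WT mice, 40 to 49.1% in dilation and 50.9 to 51.7% in aneurysm mice, and its part in these differences was not tested. Il1b differed by 0.04 ± 0.26, Il18 by −0.02 ± 0.31, Aim2 by 0.05 ± 0.28, Pycard by −0.11 ± 0.19, Casp1 by −0.16 ± 0.15 and Gsdmd by −0.24 ± 0.2. Il1a (1.7 CPM in mutant and 4.22 CPM in Jak2WT mice) and Il1rn (14.6 and 9.29 CPM) did not pass the filter on low counts.

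In all 1775 curated macrophages (mainly the resident, IEG+, interferon-responsive and inflammatory clusters, without the low-RNA cluster), 0 of 10 members were called with the genotype by edgeR and 0 by DESeq2, with 4 at an unadjusted p below 0.05, where 0% of 8171 genes were called (945 at an unadjusted p below 0.05, and 38 called by DESeq2). Il1rn differed by 2.01 ± 0.76 (adjusted p = 0.351), Il1b by 1.63 ± 0.67 (adjusted p = 0.382), Nlrp3 by 1.25 ± 0.41 (adjusted p = 0.304) and Il1a by 1.16 ± 0.7 (adjusted p = 0.545). With dilation mice alone against Jak2WT these became 0.19, −0.1, 0.43 and −0.56. Il18 differed by 0.07 ± 0.23, Aim2 by −0.19 ± 0.23, Pycard by 0.1 ± 0.19, Casp4 by 0.09 ± 0.14 and Gsdmd by −0.16 ± 0.16. Casp1 had 68.6 to 91.9 CPM in Jak2WT and 50.6 to 59.6 CPM in Jak2V617F Myel mice (−0.48 ± 0.12, adjusted p = 0.234). Casp1 was also lower in inflammatory than in resident macrophages in 4 of 5 mice, without passing the test. With the inflammatory clusters left out, Casp1 differed by −0.42 (adjusted p = 0.134), Il1rn by 1.51 (adjusted p = 0.0919) and Nlrp3 by 0.95 (adjusted p = 0.14). There Il1b differed by 0.51 (adjusted p = 0.757) and Il1a by 0.3 (adjusted p = 0.894). In a fit that kept dilation and aneurysm as separate groups and compared their mean with Jak2WT, Casp1 (−0.48, adjusted p = 0.0336) and Nlrp3 (1.2, adjusted p = 0.0275) passed. That fit called 264 of 9022 genes. In sums over all macrophages, more RNA per cell and a larger share of an expressing subset cannot be told apart. In IEG+ macrophages the genotype was not tested. Their mean Casp1 level was 80.9 CPM (range 71.3 to 102) in 4 Jak2WT mice and 53 CPM (46.2 to 65.5) in 5 mutant mice. Their mean Nlrp3 level was 200 CPM (151 to 258) and 367 CPM (228 to 475), respectively. Il1rn had 6.7 CPM (0 to 14.8) and 41.2 CPM (20.1 to 93.9). The ranges of Nlrp3 and of all remaining members overlapped between the genotypes. In the same order, means were 13.4 and 30.9 CPM for Il1a, 207 and 260.3 for Il1b, and 23.3 and 20.7 for Il18. They were 41.3 and 25.8 CPM for Aim2, 57.8 and 71.1 for Pycard, 206 and 194 for Casp4, and 32.4 and 30.4 for Gsdmd.

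In cDC2, 0 of 10 members were called by edgeR, where it called 0.0907% of 4411 genes. There were 3 members at an unadjusted p below 0.05, as were 376 of the 4411 genes. DESeq2 called 1 member and 26 genes in all. Nlrp3 was 140.3, 54.3, 5.71 and 55.8 CPM in Jak2WT mice 1, 2, 4 and 5, the third of which rests on 1 UMI. It was 154, 146 and 316 CPM in dilation mice 6, 8 and 10 and 287 and 256 CPM in aneurysm mice 7 and 9. The difference of 1.75 ± 0.43 missed the threshold (adjusted p = 0.21). It passed by DESeq2 (1.78, adjusted p = 0.0216), without a filter on low counts (1.86, adjusted p = 4.44e-05) and without Jak2WT mouse 1 (2.39, adjusted p = 0.0462). Those settings called 26 of 4411, 97 of 14705 and 18 of 5250 genes, respectively. Casp4 had 50.9 to 82.8 CPM in Jak2WT and 92.6 to 109 CPM in mutant mice (0.55 ± 0.19, adjusted p = 0.426). Il1b had 1381 to 3576 CPM in Jak2WT and 2918 to 4255 CPM in mutant mice (0.56 ± 0.25, adjusted p = 0.576). The others differed by 0.59 ± 0.55 (Il1a), 0.47 ± 0.35 (Il1rn), −0.04 ± 0.27 (Il18), 0.13 ± 0.26 (Aim2), −0.08 ± 0.21 (Pycard), −0.17 ± 0.29 (Casp1) and −0.01 ± 0.25 (Gsdmd). The 7 macrophage markers summed to 451 to 1551 CPM in the cDC2 of Jak2WT mice, 2124 to 4691 in dilation and 2347 to 2926 in aneurysm mice. In the same order, the 5 markers of Saa3+ myeloid cells, a class with more Nlrp3, summed to 17 to 33.5, 32.4 to 515 and 27.2 to 30.8 CPM. The 4 markers of Ccr7+ dendritic cells summed to 34.2 to 78.1, 21 to 98 and 160.2 to 422 CPM. No marker of these 3 lists was at 0, and the part of these lists in the differences was not tested.

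Lymphocytes, in which LysM-Cre is mostly inactive, allowed few tests. In B cells 2 members (Aim2 and Pycard) and in T cells 1 (Pycard) passed the filter on low counts, and 0 were called by edgeR or DESeq2 or at an unadjusted p below 0.05. Of 3300 genes in B cells and 3182 in T cells 0% and 0% were called, with 143 and 219 at an unadjusted p below 0.05 and 3 and 0 called by DESeq2. Pycard differed by 0.16 ± 0.27 in B cells and −0.27 ± 0.23 in T cells, and Aim2 by −0.05 ± 0.26 in B cells. The other members were not tested there. A test of whether the genotype difference itself differed between resident macrophages and cDC2, in 9 mice, called 0 of 10 members by edgeR and by DESeq2, with 1 at an unadjusted p below 0.05 (Il1a), where 0.202% of 7922 genes were called. Of all genes tested, 604 had an unadjusted p below 0.05, and DESeq2 called 19. The difference between both effects was −0.62 ± 0.57 for Nlrp3, −2.02 ± 0.93 for Il1a, −0.63 ± 0.38 for Il1b, −0.17 ± 0.7 for Il1rn and −0.24 ± 0.37 for Gsdmd, and between −0.17 and −0.05 for Il18, Aim2, Pycard, Casp1 and Casp4. Of the pathway genes 0 were called in any of the 5 comparisons of genotype by edgeR, from 6 tested in T cells to 25 in all curated macrophages, with 0 to 4 at an unadjusted p below 0.05 and 0 or 1 called by DESeq2.

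Severity was compared between the 2 aneurysm and 3 dilation mice in a fit that took its spread from all 3 groups. In all curated macrophages, 4 of 10 members rose in aneurysm and 0 fell, where 6.12% of 9022 genes rose, 4.48% fell, and 10.6% were called in all. Il1b was 374, 309 and 422 CPM in dilation mice 6, 8 and 10 and 2587 and 2215 CPM in aneurysm mice 7 and 9, while the Jak2WT mice had 104 to 927 CPM. The difference of aneurysm from dilation was 2.77 ± 0.55 log2 units (adjusted p = 0.00517). Il1rn was 47.2, 29.4 and 45.8 CPM against 228 and 324 CPM (2.8 ± 0.55, adjusted p = 0.00487), with 4.65 to 101 CPM in Jak2WT. Il1a was 20.2, 5.15 and 24.7 CPM against 139 and 75.8 CPM (2.64 ± 0.49, adjusted p = 0.00361), with 4.94 to 44.7 CPM in Jak2WT. Nlrp3 was 187, 113 and 264 CPM against 602 and 447 CPM (1.53 ± 0.35, adjusted p = 0.0126), with 73.2 to 206 CPM in Jak2WT. The call on Nlrp3 was lost without aneurysm mouse 7 (1.3, adjusted p = 0.115), and DESeq2 did not call Il1rn (2.83, adjusted p = 0.0555). Il18, Aim2, Pycard, Casp1, Casp4 and Gsdmd were not called, with log2 differences of 0.14 ± 0.28, 0.08 ± 0.27, 0.39 ± 0.22, −0.12 ± 0.14, −0.22 ± 0.18 and 0.29 ± 0.18, respectively.

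The 4 genes that rose were also higher in the inflammatory clusters than in resident macrophages. The share of these clusters differed between aneurysm and dilation mice. They made up 65.1% and 49.7% of the curated macrophages in aneurysm mice 7 and 9, 9.38%, 1.61% and 7.23% in dilation mice 6, 8 and 10, and 0 to 9.57% in Jak2WT mice. With both clusters left out, 0 of 10 members and 1 gene in all was called, and the differences were 0.89 for Il1b (adjusted p = 1), 0.97 for Il1rn (adjusted p = 0.89), 0.6 for Il1a (adjusted p = 1) and 0.79 for Nlrp3 (adjusted p = 0.951). Leaving out both clusters also removed cells in which these 4 genes were high, so the lost calls do not separate share from level per cell. The part of the share in the rise was not tested. With both clusters kept, 5 of 30 pathway genes were called, where 10.6% of all 9022 genes were called. Mefv rose by 2.34 ± 0.47 (16.1 against 3.32 CPM, adjusted p = 0.00562) and Irak2 by 0.74 ± 0.19, whereas Il1rl1 fell by 0.86 ± 0.22, Nlrc4 by 0.84 ± 0.23 and P2rx7 by 0.55 ± 0.17. The 10 immediate-early and heat-shock genes, which respond to dissociation of tissue, summed to 31321 to 32829 CPM in dilation and 16698 to 17624 CPM in aneurysm macrophages, and their part in the result was not tested. The 6 neutrophil markers summed to 65.7 to 117 CPM in dilation and 54.5 to 191 CPM in aneurysm macrophages, and the 6 cDC2 markers to 42.5 to 68.1 and 104 to 127 CPM, with none at 0 in either list. Their part was not tested either.

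**Figure D5:**
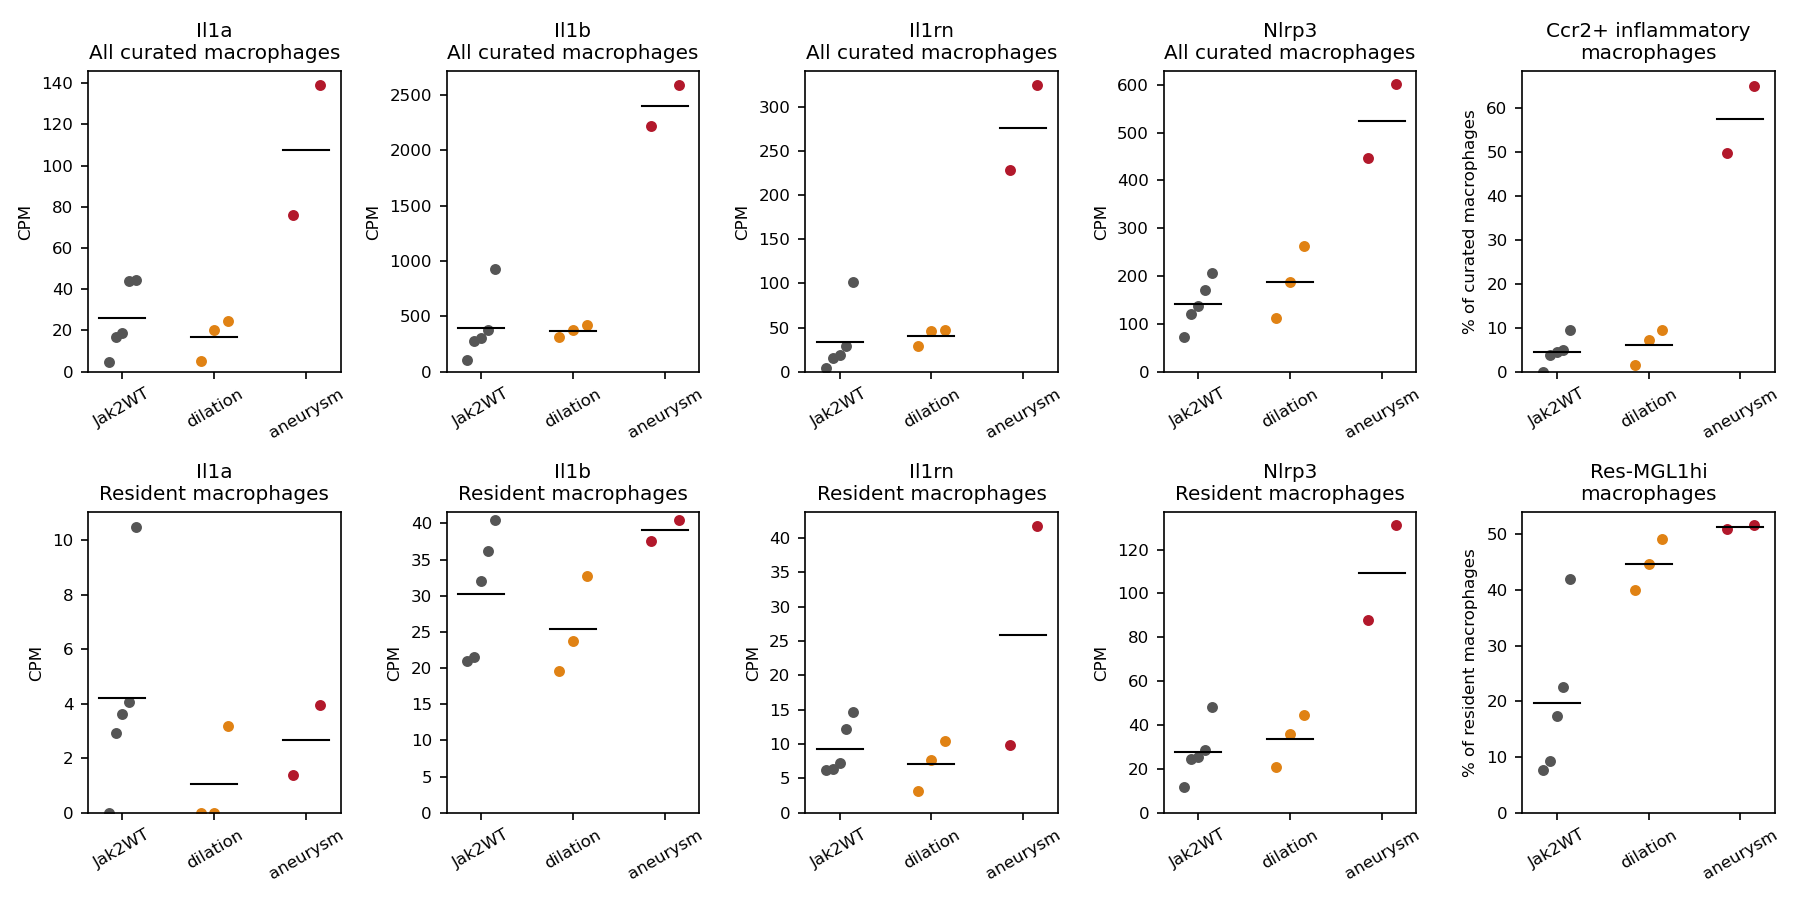
Level (vertical axes, CPM) of Il1a, Il1b, Il1rn and Nlrp3 by group in all curated macrophages (top) and resident macrophages (bottom), with the percentage of curated macrophages in the Ccr2+ inflammatory clusters and of resident macrophages in the Res-MGL1hi subset at right. Points are mice and bars are means. In the top row both aneurysm mice lie above all dilation and Jak2WT mice, as does their inflammatory share of 49.7 and 65.1%, and in the bottom row Nlrp3 (87.9 and 131 CPM) and the Res-MGL1hi share (51.7 and 50.9%) lie above those of the other mice.

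Within resident macrophages, cDC2, Ccr2+ inflammatory and IEG+ macrophages, the single classes in which severity was tested, no member was called by edgeR. In resident macrophages 0 of 8 members were called by edgeR and 0 by DESeq2, with 2 at an unadjusted p below 0.05, where 0% of 7500 genes were called (278 at an unadjusted p below 0.05, 0 by DESeq2). Nlrp3 (109 against 33.7 CPM) differed by 1.67 ± 0.33 (adjusted p = 0.312). Without a filter on low counts its difference was also 1.67 (adjusted p = 5.63e-08), and that setting called 37 of 15054 genes. Il1b (39.1 against 25.4 CPM) differed by 0.66 ± 0.29 (adjusted p = 1), at a level like that of B cells. Il18 differed by 0.52 ± 0.39, Aim2 by 0.47 ± 0.34, Pycard by −0.2 ± 0.26, Casp1 by 0.01 ± 0.21, Casp4 by 0.04 ± 0.27 and Gsdmd by 0.12 ± 0.27, and Il1a and Il1rn did not pass the filter. In cDC2 0 of 10 members were called by edgeR and 0 by DESeq2, and 0 had an unadjusted p below 0.05, where 0.269% of 5196 genes were called. Il1b had 3904 CPM in aneurysm and 3574 CPM in dilation cDC2 (0.14 ± 0.35), Nlrp3 271 and 205 CPM (0.41 ± 0.45), and Casp1 55 and 45.6 CPM (0.33 ± 0.32). The other 7 differed by −0.3 ± 0.53 (Il1a) to 0.06 ± 0.28 (Pycard).

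In Ccr2+ inflammatory macrophages, with 2 aneurysm and 2 dilation mice, 0 of 9 members were called by edgeR, where it called 0.0432% of 4631 genes. There were 2 members at an unadjusted p below 0.05, as were 480 of the 4631 genes. DESeq2 called 1 member and 14 genes in all. Il1b was 3559.8 and 3575 CPM in aneurysm mice 7 and 9 against 1799 and 1958 CPM in dilation mice 6 and 10 (0.88 ± 0.19, adjusted p = 0.182), and passed with DESeq2 (0.86, adjusted p = 0.0202) and without a filter on low counts (1.05, adjusted p = 0.00371). Il1a was 194 and 117 against 0 and 57.6 CPM (1.93 ± 0.59, adjusted p = 0.33), and passed without the filter (2.09, adjusted p = 5.36e-06). The fit without the filter called 198 of 14867 genes. Without aneurysm mouse 9, which left 1 aneurysm mouse, Il1a differed by 2.29. The dilation mice had 12 and 18 such cells against 237 and 194 in the aneurysm mice. Nlrp3 had 668 CPM in aneurysm and 693 CPM in dilation mice (−0.07 ± 0.28). Il1rn differed by 0.74 ± 0.34, Aim2 by −0.83 ± 0.42, Pycard by 0.63 ± 0.29, Casp1 by −0.32 ± 0.36, Casp4 by −0.2 ± 0.33 and Gsdmd by 0.09 ± 0.42, and Il18 did not pass the filter. In IEG+ macrophages, with 2 aneurysm and 3 dilation mice, 0 of 10 members were called by edgeR and 0 by DESeq2, and 0 had an unadjusted p below 0.05, where 0.0163% of 6127 genes were called. Nlrp3 had 461 against 305 CPM (0.5 ± 0.25) and Il1b 334 against 211 CPM (0.57 ± 0.41), and the other 8 differed by −0.34 ± 0.41 (Aim2) to 0.71 ± 0.48 (Il1rn). These last comparisons in inflammatory and IEG+ macrophages were chosen after seeing the data. Of the pathway genes, 0 were called by edgeR or DESeq2 with severity in any of the 4 single classes, from 16 tested in IEG+ macrophages to 25 in resident macrophages, with 0 to 3 at an unadjusted p below 0.05. Severity was not compared in neutrophils, of which no dilation mouse had 10.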

How the data were processed

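Aortic CD45+ cells of 10 mice were measured in 1 run, with a transcript, an antibody and a hashtag library. Per the labels, the authors processed the reads with Cell Ranger against mm10 and deposited raw UMI counts, and their processing notes list Seurat 3.0.0. The antibody counts were not used here. From the deposited counts, hashtags were assigned (quantile 0.99), multiplets removed, cells over 10% mitochondrial UMIs left out and cells clustered in R 4.3.3 with Seurat 5.3.0 without the 56 member and pathway genes. Classes were named from marker lists, with at least 3 markers detected. A macrophage cluster of 358 cells, picked by the markers of a resident subset not named at first, was divided again at resolution 0.4. UMI counts were summed per mouse and class (at least 10 cells) and tested with edgeR 4.0.16 (quasi-likelihood test, filter on low counts, TMM, Benjamini-Hochberg adjustment over all genes tested, threshold 0.05), with the mouse as a block between classes. DESeq2 1.42.0 was an alternative, as were other filters, clusterings, the fit without the block and leaving out each mouse in turn. The test was checked on simulated data for the genotype in all curated macrophages and for inflammatory against resident macrophages. The simulated means held no effect of the mouse, and the comparison of severity was not simulated. Each mouse was 1 animal and supplied its own cells for every class, so the block rests on the hashtags.

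All 10 members were named in every comparison, by value, in a range or as not tested. Of the pathway genes, those with an adjusted p below 0.05 were named, at most 8 per comparison by size of change. The 3 genes most like each member were taken by Pearson correlation of log2 (mean CPM + 1) over classes, among genes with at least 20 CPM in a class, and the most similar one was printed for 6 members. The genes most like Il1a are not reported here. Members and lists were chosen with earlier results of these data known. Depth was 1038443 to 9643994 UMIs per mouse. Cell numbers were not compared between genotypes because the sort was adjusted.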

Additional observations from a re-analysis of the deposited data

Results flagged for a closer look

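Of 99 groups of 4 or 5 mice tested for a sample far from the others (Dixon's test at 95%), 10 were marked, and chance marks about 1 in 20. They fell in 7 of the 10 genes, and the mutant mice were taken as 1 group of 5, dilation and aneurysm together. In all curated macrophages, Jak2WT mouse 2 had 101 CPM of Il1rn against 4.65 to 29.5 CPM in the other Jak2WT mice, and dilation mouse 8 had 21.3 CPM of Gsdmd against 32.2 to 35.2 CPM in the other mutant mice. In resident macrophages, aneurysm mouse 7 had 41.8 CPM of Il1rn against 3.18 to 10.4 CPM in the other mutant mice. In cDC2, Jak2WT mouse 5 had 22.3 CPM of Aim2 against 34 to 36 CPM, and dilation mouse 10 had 33.1 CPM of Casp1 against 51.8 to 57.1 CPM. The others were in lymphocytes, at low counts. In T cells, aneurysm mouse 7 had 64.4 CPM of Il1b against 9.8 to 22.7 CPM, and dilation mouse 6 had 0 CPM of Casp1 against 14.7 to 16.1 CPM. In B cells, Jak2WT mouse 1 had 13 CPM of Il1rn against 3.85 to 4.98 CPM, dilation mouse 10 had 14.8 CPM of Il18 against 0 CPM, and aneurysm mouse 9 had 34.6 CPM of Nlrp3 against 3.69 to 7.29 CPM.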

How the results depend on the processing

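The number of members called with the genotype in resident macrophages, 0 in the report, became 2 without a filter on low counts and 1 with clusters drawn on all variable genes, and ranged from 0 to 1 with a mouse left out (1 without Jak2WT mouse 2). These 3 settings called 318 of 15054, 133 of 6739 and 142 of 6729 genes, respectively, against 61 of 6456 in the main fit. In all curated macrophages it went from 0 to 2 in the fit of 3 groups, which called 264 of 9022 genes against 0 of 8171 in the main fit. In cDC2 it went from 0 to 1 with DESeq2 and without a filter, and from 0 to 1 with a mouse left out (1 without Jak2WT mouse 1). Genes called there were 26 of 4411, 97 of 14705 and 18 of 5250, respectively, against 4 of 4411 in the main fit. For aneurysm against dilation it went from 0 to 1 without a filter in resident macrophages, with 37 of 15054 genes called against 0 of 7500. In all curated macrophages it went from 4 to 0 with the inflammatory clusters left out, an alternative chosen after seeing the data, as was the Spp1+ cluster alone. With sums of at least 1 cell, 7 members instead of 4 were called in neutrophils, the 3 added ones (Pycard, Casp1 and Casp4) being lower there. That setting called 3162 of 5305 genes, against 1472 of 4506 in the main fit. Without the block on mice, the subsets of resident macrophages had 1 member called instead of 2, Nlrp3 being filtered out (3380 genes tested instead of 4743), the call on Il1a in inflammatory macrophages and cDC2 was lost because it was filtered out, and the calls on Il18 in cDC2 and Il1b in cDC1 were lost by the test. The causes of the other changes were not tested. Leaving out aneurysm mouse 7 lowered the genes called from 1752 to 1095 in inflammatory macrophages, from 1463 to 876 in cDC1 and from 1472 to 777 in neutrophils. Genes called ranged over all alternatives from 2 to 318 for the genotype in resident macrophages, from 0 to 264 in all curated macrophages and from 2 to 97 in cDC2. No log2 difference of a member called in the main fits reversed its sign. Pycard in neutrophils, not called at 0.07 in the main fit, was called at −1.39 with sums of at least 1 cell. In lymphocytes most members did not pass the filter on low counts. For aneurysm against dilation in Ccr2+ inflammatory macrophages, 0 members became 1 with DESeq2 and 2 without a filter. These settings called 14 of 4631 and 198 of 14867 genes, against 2 of 4631 in the main fit. Without an aneurysm or a dilation mouse, that group held a lone sample, which was assumed to vary like the others. The comparison was not run without Jak2WT mouse 2, the only Jak2WT mouse in it.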

Other observations

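The pathway genes that the report does not describe give a few further values. In neutrophils, Il18rap, a subunit of the IL-18 receptor, had 31 UMIs (89.9 CPM) against 2 UMIs in resident macrophages, and Mefv, which encodes pyrin, had 21 UMIs (51.2 CPM) against 3 UMIs. Serpinb1a was higher in neutrophils than in resident macrophages (171 against 27.2 CPM, 2.25 ± 0.63 log2 units), the opposite of its direction in Ccr2+ inflammatory macrophages (4.5 against 23.6 CPM). P2rx7 was lower than in resident macrophages in each of 3 other classes compared, with 7.8 against 129 CPM in neutrophils, 10.7 against 107 CPM in cDC2 and 30.9 against 115 CPM in Ccr2+ inflammatory macrophages. These comparisons share resident macrophages of the same mice. A cluster of 28 monocytes, too few per mouse for a level, held 2113 Il1b, 105 Nlrp3 and 63 Il1rn UMIs in all.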
